A study of Mus musculus with 8 samples.

Results

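The circadian clock genes of Paneth cells (PCs), which fill the crypt base of the small intestine with antimicrobial granules, were examined in 8 bulk RNA-seq libraries. The clock genes were the 10 genes *Bmal1*, *Clock*, *Per1*, *Per2*, *Per3*, *Cry1*, *Cry2*, *Nr1d1*, *Nr1d2* and *Dbp*, taken by name from the 55414 genes of the count table. The expression filter kept 9 of the 10, and *Dbp* was below it. PCs were sorted from the small intestine of C57BL/6J mice. In 4 libraries the animals had drunk Milli-Q water for 7 days, and in 4 libraries water with 25 mM zinc sulfate for 7 days. In both groups the labels give an injection of tumor necrosis factor (TNF), an inflammatory cytokine, 3 hours before the cells were taken. No library is therefore labelled as PCs without TNF, although TNF response genes were low in zinc replicate 3, as given below. Mice were kept under a fixed light and dark cycle according to the study's methods. The time of day of collection and the age and sex of each animal are given in none of the sources used here, and the labels do not name the animal behind a library, so p-values measure the spread between these libraries.

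In the molecular clock, the transcription factors CLOCK and BMAL1 bind as a pair to E-box sequences and drive the *Per* and *Cry* genes, the nuclear receptor genes *Nr1d1* and *Nr1d2* (REV-ERBα and REV-ERBβ) and the output gene *Dbp*. PER and CRY proteins then repress CLOCK and BMAL1, while the REV-ERB proteins repress *Bmal1* and *Cry1* through RORE sequences, which ROR receptors use as activators. DBP and its relatives TEF and HLF activate genes with a D-box, the sequence that the repressor NFIL3 also binds. In rodent tissues, gut epithelium included, the *Bmal1* transcript is high at the time of day when those of *Nr1d1* and *Dbp* are low, and the ratio of such a pair within 1 sample is therefore used as a readout of clock phase.

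The promoters of 5 of the 10 clock genes held at least 1 of the 3 clock motifs. A promoter was the 300 bases around the start of the canonical GENCODE M39 transcript in GRCm39, 250 of them before the start, read 5′ to 3′ on the strand of the gene. The stretches with a motif are shown, with the motif in capitals, because motifs of these kinds are known to wire clock genes to each other. Whether these matches do so was not tested. The E-box searched was CACGTG and the D-box was TTANGTAA, and the RORE was searched by its usual consensus, each on both strands. *Per1* (chr11:68989226-68989271, plus strand) and *Cry1* (chr10:85020953-85020998, minus strand) held an E-box, *Per2* (chr1:91387144-91387191, minus strand) held 1 D-box and *Per3* (chr4:151129253-151129347, minus strand) held 2, and *Dbp* (chr7:45354299-45354349, plus strand) held a RORE.
Per1: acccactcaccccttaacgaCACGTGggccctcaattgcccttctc
Cry1: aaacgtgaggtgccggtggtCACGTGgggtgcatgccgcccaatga
Per2: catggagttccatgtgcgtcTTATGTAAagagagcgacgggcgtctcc
Per3: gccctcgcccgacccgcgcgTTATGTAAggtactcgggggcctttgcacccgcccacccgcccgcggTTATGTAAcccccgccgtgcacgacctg
Dbp: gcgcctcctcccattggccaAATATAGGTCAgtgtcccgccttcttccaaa
With the start counted as 0, the E-box began at -22 in *Per1* and at -29 in *Cry1*. The D-box began at -125 in *Per2* and at -187 and -140 in *Per3*, and the RORE of *Dbp* began at -193. No motif overlapped another. Of 21770 promoters of protein-coding genes, 7.81% held the E-box, 2.30% the D-box and 0.326% the RORE, against 2, 2 and 1 of the 10 clock genes. A match is a description of letters, and the promoters of *Bmal1*, *Clock*, *Cry2*, *Nr1d1* and *Nr1d2* held none of these letters in this window.

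The libraries held 10623658 to 15101627 counts. Values are given as CPM, counts scaled by the edgeR TMM library sizes to a common depth, where a gene without counts may still have had up to 3, equal to 0.179 to 0.369 CPM. All 10 Paneth cell markers passed the expression filter and summed to 395880 to 742780 CPM. Zinc replicate 3 stood apart from the rest: its log2 CPM correlated with those of the other 7 libraries at r of 0.8292 to 0.890, whereas those 7 correlated with each other at 0.949 or above. Its summed CPM of 16 genes of the TNF and NF-kB response came to only 139, against 1714 to 2002 in the other 7 libraries, although its label gives the same TNF injection. Differences between the treatments below are therefore also given without it. Milli-Q water replicates 3 and 4 differed in another way: the deviation of their genes from the mean of all libraries fell with transcript length (Spearman rho of -0.335 and -0.340 across genes), whereas rho was between 0.000121 and 0.251 in the other 6.

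The transcript levels of the clock genes in PCs spanned a wide range. For levels between genes, CPM was divided by the length of the canonical transcript in kilobases and averaged over the 8 libraries (± SD, n = 8). *Cry1* was the most abundant clock gene at 13.4 ± 3.61 CPM per kb. *Nr1d2* at 4.83 ± 1.26 and *Per1* at 4.65 ± 1.04 CPM per kb followed, and these neighbours did not differ beyond their spread. *Clock* came next at 2.35 ± 0.286 CPM per kb. The levels of *Nr1d1* at 1.65 ± 1.99, *Bmal1* at 1.44 ± 0.836, *Per2* at 1.25 ± 0.603, *Cry2* at 0.958 ± 0.392 and *Per3* at 0.599 ± 0.475 CPM per kb lay within each other's spread. The mean of *Nr1d1* rested on zinc replicate 3, and over the other 7 libraries it was 0.962 ± 0.4996 CPM per kb, below *Bmal1* at 1.6001 ± 0.749 and *Per2* at 1.09 ± 0.453, still within their spread. *Dbp* was last at 0.401 ± 0.874 CPM per kb, and 67 of its 81 counts came from the same library.

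Zinc did not shift any clock gene past the threshold. None of the 9 tested clock genes had an adjusted p under 0.05 (edgeR quasi-likelihood test with Benjamini-Hochberg adjustment over 10707 genes), which was so for 0.00% of all tested genes as well. At an unadjusted p under 0.05 the test took 0 of the 9 clock genes and 10.2% of all tested genes. DESeq2 took 1 clock gene (*Nr1d1*) and 6.87% of all genes, and edgeR without the filter took 2 (*Nr1d1* and *Dbp*) and 9.13%. The limma-voom fit, here and below with sample weights that can count an outlying library less, took 0 and 12.4%. With single libraries left out, edgeR took *Cry2* without zinc replicate 1, where it took 826 of all 10838 tested genes. It took *Nr1d1* without zinc replicate 2 (1084 of all 10823 genes). Without zinc replicate 4 it took *Per2* and *Nr1d1* (1960 of all 10924 genes). None of these clock genes passed after adjustment. The 4 zinc values and the 4 Milli-Q water values overlapped for all 9 tested clock genes and for *Dbp*, whereas 5.87% of all tested genes had groups that did not overlap (2.76% with zinc higher, 3.12% with zinc lower). The median log2 fold change, zinc over water, was 0.17 over the 9 clock genes and 0.01 over all tested genes, with 6 clock genes higher and 3 lower in zinc, where 50.8% of all tested genes were higher and 49.2% lower. Without zinc replicate 3 the clock median was 0.09, with 5 higher and 4 lower, and under limma-voom it was -0.00089, with 4 higher and 5 lower. The larger part of what follows is therefore about differences between single libraries.

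**Figure D1:**
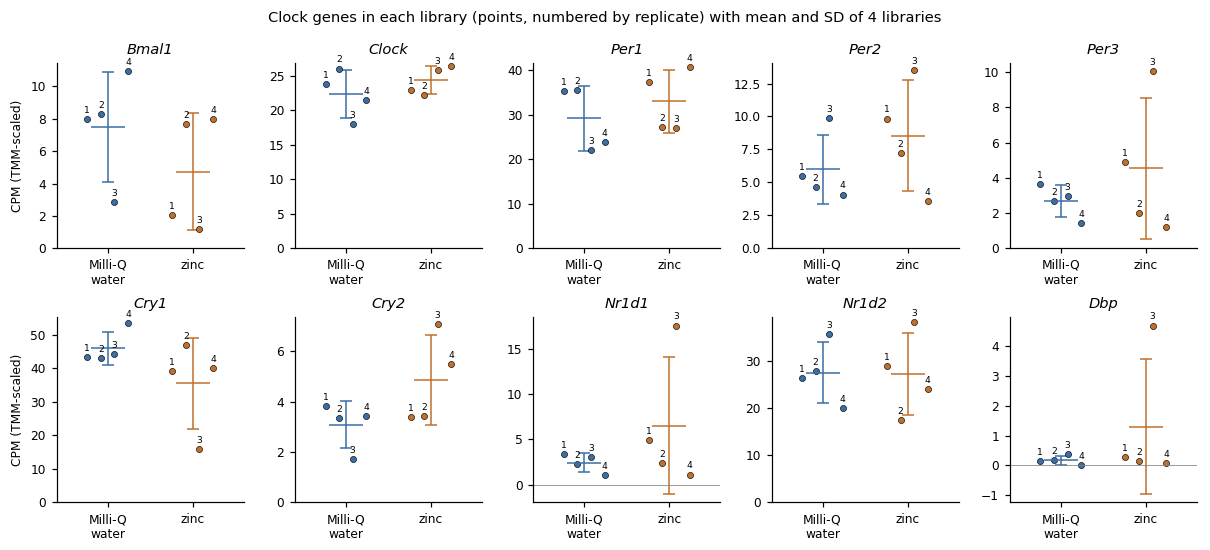
Level of each of the 10 clock genes (y axis, TMM-scaled CPM) in the 4 Milli-Q water and 4 zinc libraries; points are libraries numbered by replicate, horizontal lines are group means and bars are 1 SD. The groups overlap for every gene, and zinc replicate 3 is the highest library for *Per2*, *Per3*, *Cry2*, *Nr1d1*, *Nr1d2* and *Dbp* and the lowest for *Bmal1* and *Cry1*.

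*Bmal1* (ENSMUSG00000055116, chr7:112806152-112914735 in GRCm39, as for the positions below), the activator that the clock cannot run without, was at 8.0, 8.28, 2.83 and 10.95 CPM in Milli-Q water replicates 1 to 4 and at 2.06, 7.67, 1.19 and 7.98 CPM in zinc replicates 1 to 4. The libraries thus fell into separate sets, with 1.19 to 2.83 CPM in Milli-Q water replicate 3 and zinc replicates 1 and 3, and 7.67 to 10.95 CPM in the other 5, and each treatment was found in both sets. The mean was 7.52 ± 3.40 CPM in the water group, against 4.73 ± 3.60 CPM in the zinc group (SD, n = 4 each). The log2 fold change of *Bmal1* was -0.68 (SE 0.570, edgeR adjusted p = 0.625) and -0.35 without zinc replicate 3. Having its 3 lowest values in these same 3 libraries was a feature that *Bmal1* shared with 4.89% of all tested genes, and with none of the other 9 clock genes. The libraries were picked by *Bmal1* itself, and 2 of 21 tested genes of the wider clock pathway shared the feature.

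*Clock* (ENSMUSG00000029238, chr5:76342860-76452846), the partner of *Bmal1*, was at 23.8, 26.0, 18.0 and 21.5 CPM with water and at 23.0, 22.2, 25.8 and 26.4 CPM with zinc. It was the steadiest clock gene, with its highest library only 1.47 times its lowest. Its log2 fold change was 0.12 (SE 0.145, edgeR adjusted p = 0.735), 0.09 without zinc replicate 3, and -0.04 without Milli-Q water replicates 3 and 4, which held its lowest values. *Clock* shares its interval with *Tmem165* on the opposite strand, and no source used here says whether the counting used strand, so reads of both genes may not have been told apart.

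Among the *Per* genes, which encode the repressors that pair with CRY proteins, *Per1* (ENSMUSG00000020893, chr11:68986035-69002300) was at 35.4, 35.6, 22.03 and 23.8 CPM with water and at 37.4, 27.2, 26.9 and 40.7 CPM with zinc. Its log2 fold change was 0.17 (SE 0.210, edgeR adjusted p = 0.738), 0.26 without zinc replicate 3 and -0.11 without Milli-Q water replicates 3 and 4, its lowest libraries. *Per1* is also known as a direct target of glucocorticoids, and the summed CPM of 13 glucocorticoid response genes, *Per1* included, came to 328 in zinc replicate 3, below the 510 to 698 of the other libraries. The list was mixed in that library: 2 of the 13 genes had their lowest and 3 their highest value there, and *Ddit4*, at 59.0 CPM there, was also low in zinc replicate 1 at 56.4 CPM against 211 to 266 in the rest. The list also holds the metallothionein genes *Mt1* and *Mt2*, which made up most of the 698 CPM, the sum of zinc replicate 1. Without them the sum was lower in zinc replicate 1 than in zinc replicate 3. *Mt1* was at 41.0, 44.3, 68.2 and 36.0 CPM with water and at 254, 107, 29.5 and 45.0 CPM with zinc. *Mt2* was at 6.50, 7.09, 22.9 and 4.00 CPM with water and at 172, 49.8, 8.35 and 4.03 CPM with zinc. In zinc replicates 3 and 4 neither gene was thus above its range with water, and the cause was not tested. *Per1* in zinc replicate 3 was not the lowest value of the gene.

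*Per2* (ENSMUSG00000055866, chr1:91343700-91387069) was at 5.47, 4.65, 9.85 and 4.08 CPM with water and at 9.84, 7.24, 13.5 and 3.55 CPM with zinc. The 3 highest values were those of the 3 libraries with low *Bmal1*, namely zinc replicate 3, Milli-Q water replicate 3 and zinc replicate 1. The log2 fold change of *Per2* was 0.53 (SE 0.397, edgeR adjusted p = 0.593) and 0.23 without zinc replicate 3.

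*Per3* (ENSMUSG00000028957, chr4:151081373-151129140) was at 3.62, 2.68, 2.95 and 1.44 CPM with water and at 4.87, 2.01, 10.03 and 1.21 CPM with zinc. Zinc replicate 3 was more than 2-fold above every other library, and replicate 4 was the lowest of its group in both treatments. The log2 fold change of *Per3* was 0.76 (SE 0.579, edgeR adjusted p = 0.597), and it fell to -0.0044 when zinc replicate 3 was left out.

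*Cry1* (ENSMUSG00000020038, chr10:84967560-85021252), which encodes a potent repressor of CLOCK and BMAL1, was at 43.2, 42.9, 44.3 and 53.3 CPM with water and at 39.1, 47.0, 15.8 and 39.9 CPM with zinc. Zinc replicate 3 was more than 2-fold below every other library, and those 7 lay within 39.1 to 53.3 CPM. The log2 fold change of *Cry1* was -0.38 (SE 0.276, edgeR adjusted p = 0.589) and -0.12 without zinc replicate 3. *Cry2* (ENSMUSG00000068742, chr2:92233894-92264474), its paralogue, was at 3.83, 3.34, 1.72 and 3.44 CPM with water and at 3.37, 3.44, 7.09 and 5.48 CPM with zinc. Its lowest library was Milli-Q water replicate 3 and its highest was zinc replicate 3, both of which had low *Bmal1*, so *Cry2* did not follow the order of *Bmal1* in either direction. The log2 fold change of *Cry2* was 0.64 (SE 0.328, edgeR adjusted p = 0.495) and 0.39 without zinc replicate 3.

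*Nr1d1* (ENSMUSG00000020889, chr11:98658752-98666188), the REV-ERBα gene, was at 3.35, 2.32, 3.08 and 1.04 CPM with water and at 4.97, 2.44, 17.5 and 1.13 CPM with zinc. Zinc replicate 3 was 6.70 times the mean of the other 7 libraries, and replicate 4 of both groups was at the bottom. The mean was 2.45 ± 1.03 CPM in the water group, against 6.52 ± 7.52 CPM in the zinc group (SD, n = 4 each). This gave the largest log2 fold change among the 9 tested clock genes, 1.42 (SE 0.724, edgeR adjusted p = 0.491), of which 0.21 remained without zinc replicate 3. *Thra*, which overlaps *Nr1d1* on the opposite strand, had 179 counts in zinc replicate 3 and 35 to 77 in the others, and reads of *Nr1d1* and *Thra* may not have been told apart.

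*Nr1d2* (ENSMUSG00000021775, chr14:4230545-4266624), the REV-ERBβ gene, was at 26.5, 28.0, 35.8 and 19.99 CPM with water and at 29.0, 17.5, 38.3 and 24.1 CPM with zinc. As for *Per2*, the 3 highest values belonged to zinc replicate 3, Milli-Q water replicate 3 and zinc replicate 1, though the highest library was only 2.19 times the lowest. Its log2 fold change was -0.01 (SE 0.245, edgeR adjusted p = 0.983) and -0.22 without zinc replicate 3.

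*Dbp* (ENSMUSG00000059824, chr7:45354512-45359627), the output factor that binds D-boxes, had 2, 3, 3 and 0 counts in Milli-Q water replicates 1 to 4 and 3, 2, 67 and 1 counts in zinc replicates 1 to 4. It was thus at or near the limit of detection in 7 libraries, at 0.369 CPM or less, and at 4.70 CPM in zinc replicate 3. With so few counts no difference between the other libraries was detectable, and a comparison of treatments rests on 1 library: without the filter, edgeR gave an adjusted p = 0.454. *Sphk2*, which overlaps *Dbp* on the opposite strand, had 669 counts in zinc replicate 3 and 107 to 246 in the others, and reads of these genes may not have been told apart either.

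**Figure D2:**
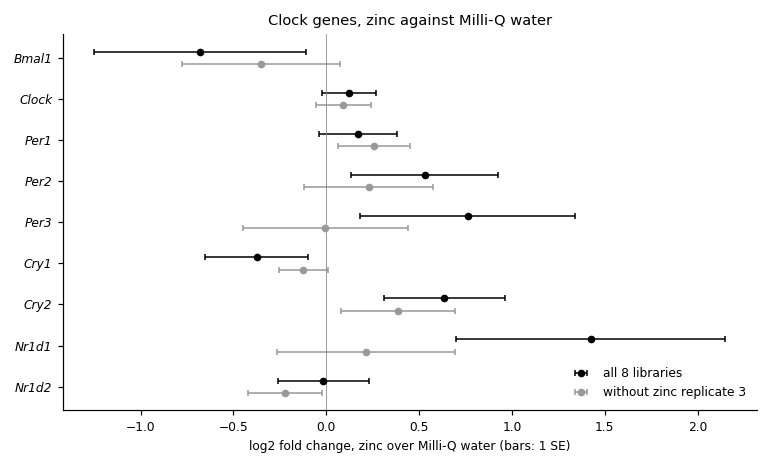
Log2 fold change, zinc over Milli-Q water, of the 9 tested clock genes (x axis) from edgeR; points are estimates and bars 1 SE, in black for all 8 libraries and in grey without zinc replicate 3. *Nr1d1* moves from 1.42 to 0.21, *Per3* from 0.76 to -0.0044 and *Bmal1* from -0.68 to -0.35 when that library is left out.

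The ratio of 2 clock genes within a library needs no scaling between libraries and was computed for 6 pairs. The ratio of *Bmal1* to *Nr1d1* counts was 2.39 (95% exact interval 1.70 to 3.40), 3.56 (2.48 to 5.22), 0.920 (0.499 to 1.69) and 10.5 (5.96 to 20.3) in Milli-Q water replicates 1 to 4. It was 0.415 (0.240 to 0.694), 3.15 (2.12 to 4.78), 0.0680 (0.0390 to 0.111) and 7.07 (4.02 to 13.4) in zinc replicates 1 to 4. These intervals are Clopper-Pearson intervals of the share of *Bmal1* in the sum of both genes and cover counting error only. Some libraries of the same treatment, such as Milli-Q water replicates 3 and 4 and zinc replicates 3 and 4, were thus far outside each other's counting error, with a range of 11.1-fold within the water group and of 98.2-fold within the zinc group, or 24.2-fold over the 7 libraries without zinc replicate 3. From low to high, the order was zinc 3, zinc 1, water 3, water 1, zinc 2, water 2, zinc 4 and water 4, with the treatments interleaved. The intervals of zinc 1 and water 3 overlapped, as did those of each library from water 1 upward and the next.

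The other *Bmal1* ratios ordered the libraries in much the same way. In all 5 ratios with *Bmal1*, zinc replicate 3, zinc replicate 1 and Milli-Q water replicate 3 were the lowest, in that order, although the intervals of the latter pair overlapped. Milli-Q water replicate 4 was the highest in 4 of them, and its place in the ratio to *Dbp* is not known, because it had 0 *Dbp* counts. These ratios share their *Bmal1* counts, which are low in those 3 libraries, and so are not independent of each other. *Bmal1* to *Nr1d2* ran from 0.0311 (0.0180 to 0.0503) in zinc replicate 3 to 0.548 (0.442 to 0.678) in Milli-Q water replicate 4. *Bmal1* to *Per2* ran from 0.0881 (0.0503 to 0.145) to 2.69 (1.93 to 3.78) in the same libraries. *Bmal1* to *Per3* ran from 0.119 (0.0674 to 0.197) to 7.61 (4.64 to 13.2). The ratio to *Dbp*, named first among these readouts, was the least precise: it was 0.254 (0.140 to 0.437) in zinc replicate 3, but in the other 7 libraries it rested on 0 to 3 *Dbp* counts, with for instance 58.5 (15.8 to 489) in Milli-Q water replicate 1 and at least 45.7 in Milli-Q water replicate 4, taking 3 counts for the 0. *Cry1* to *Dbp* was likewise 3.36 (2.55 to 4.48) in zinc replicate 3 and 120.0 or more in the rest.

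**Figure D3:**
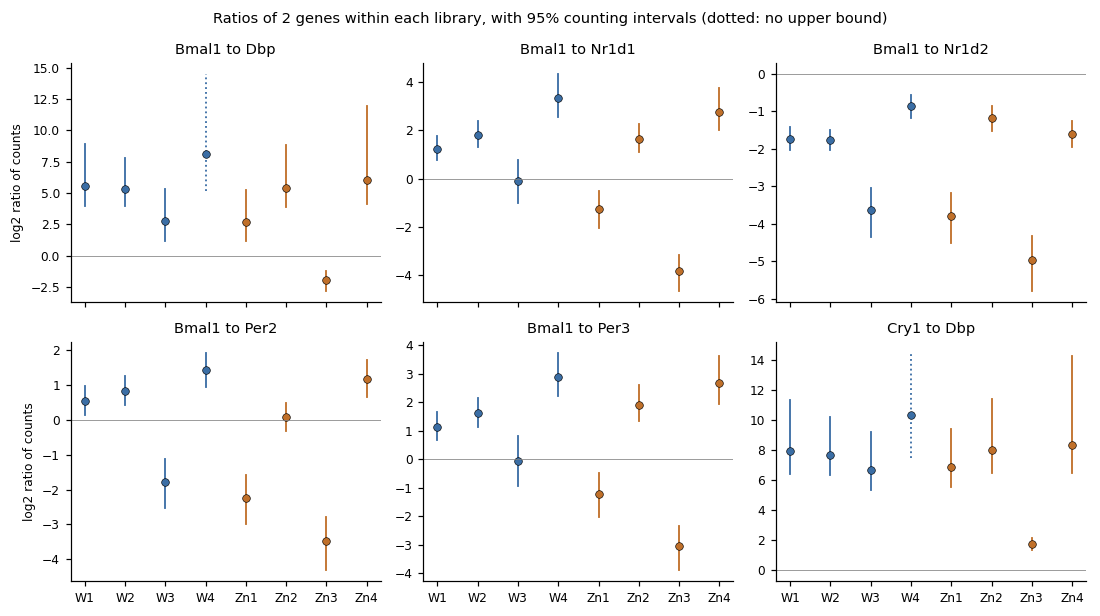
Log2 ratio of the counts of 2 genes within each library (y axis, 0.5 counts added to each gene) for 6 pairs of clock genes; points are libraries (W, Milli-Q water, Zn, zinc, by replicate), bars 95% exact counting intervals, and dotted bars have no upper bound because *Dbp* had 0 counts. Zinc 3, zinc 1 and water 3 are lowest in the 5 panels with *Bmal1*, and bars are widest for the *Dbp* pairs.

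No ratio differed between the treatments beyond the spread of the libraries. On the log2 scale with 0.5 counts added, *Bmal1* to *Dbp* was 5.43 ± 2.19 with water and 3.05 ± 3.64 with zinc (SD, n = 4 each), a difference of -2.38 (two-sided exact permutation p = 0.4). *Bmal1* to *Nr1d1* was 1.57 ± 1.44 and -0.17 ± 2.98, a difference of -1.74 (exact permutation p = 0.343), which became -0.52 without zinc replicate 3 (exact permutation p = 0.686). For *Bmal1* to *Nr1d2* the difference was -0.89 (exact permutation p = 0.429), for *Bmal1* to *Per2* it was -1.37 (exact permutation p = 0.257), for *Bmal1* to *Per3* -1.31 (exact permutation p = 0.429) and for *Cry1* to *Dbp* -1.92 (exact permutation p = 0.457). All 6 adjusted values were 0.457 (Benjamini-Hochberg over 6 ratios), and the smallest p that 4 against 4 libraries allow is 0.0286. The sign of the difference was negative for all 6 ratios, which share genes and libraries. Without zinc replicate 3 the differences shrank to between -0.71 and -0.19.

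Markers and response genes also varied between these libraries. The 8 markers of crypt stem and progenitor cells, 7 of them tested and none at 0, summed to 492, 551, 564 and 385 CPM in Milli-Q water replicates 1 to 4 and to 1042, 757, 970 and 432 CPM in zinc replicates 1 to 4. The highest sums were thus in zinc replicates 1 and 3, which had the lowest *Bmal1* ratios, and the lowest in the replicates 4, which had the highest *Bmal1* to *Nr1d1* ratios. Milli-Q water replicate 3, also low in *Bmal1*, did not follow this: its 564 CPM lay below the 757 of zinc replicate 2, where *Bmal1* was high. On the log2 CPM scale the mean of its 7 tested markers, 4.52, lay below those of Milli-Q water replicates 1 and 2, 4.62 and 4.74. The sum is carried by *Olfm4* and *Slc12a2*. The 16 immediate early genes summed to 1544 to 1747 CPM with water and to 536 to 1518 CPM with zinc, lowest in zinc replicates 3 and 1. The 10 enterocyte markers summed to 280 to 307 CPM with water and to 285 to 478 CPM with zinc, highest in zinc replicate 3. The 6 enteroendocrine and tuft markers also had their highest sum there, 12.8 CPM against 0.862 to 10.9 in the others. Of these 6, only 2 were tested, both highest in zinc replicate 3, and 3 had under 100 counts in all. *Chga* at 2.86 CPM and *Chgb* at 3.57 CPM were highest in Milli-Q water replicate 2. The enterocyte sum is carried by *Vil1*, which was at a similar level in all libraries. On the log2 CPM scale the mean of the 7 tested enterocyte markers was 5.10 in zinc replicate 3, against 0.243 to 3.05 in the others. The 8 goblet cell markers summed to 10409 to 15088 CPM with water and 10671 to 15397 CPM with zinc. The sum is carried by *Muc2* and *Spink4*. On the log2 CPM scale the mean of all 8 goblet markers was highest in zinc replicate 3, at 9.17 against 7.85 to 8.55 in the others. Of these 8 markers 3 had their highest value there, among them *Fcgbp* at 1270 CPM against 59.8 to 318. The 10 immune and stromal markers summed to 0.715 CPM or less in every library, with the macrophage marker *Adgre1* and the collagen genes *Col1a1* and *Col3a1* among those at 0 in all 8. The part of the other lists in the differences between libraries was not tested, and in bulk RNA fewer cells of a type and less RNA per cell cannot be told apart.

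Most clock genes varied more between libraries of a group than the median gene. The measure was the biological coefficient of variation (BCV) of edgeR, the spread between libraries of a group beyond counting error relative to the mean. *Nr1d1* had a BCV of 0.672, above 98.7% of all tested genes, *Bmal1* of 0.557 (96.6%), *Per3* of 0.551 (96.5%) and *Per2* of 0.388 (87.0%). *Cry2* at 0.314, *Cry1* at 0.285 and *Nr1d2* at 0.255 were nearer the median of 0.231, and *Per1* at 0.224 and *Clock* at 0.162 were below it. In all, 7 of the 9 lay above the median of all tested genes and 5 above the upper quartile of 0.312. Of 21 other tested genes of the clock pathway, described below, 10 lay above that quartile too. Those 5 clock genes also had the lowest mean CPM of the 9, and the comparison with all genes was not matched for abundance. The median SD of log2 CPM within a group was 0.51 over the clock genes and 0.32 over all tested genes, and 0.46 and 0.26 without zinc replicate 3. Leaving out that library took the SD of *Cry1* from 0.51 to 0.15, that of *Nr1d1* from 1.29 to 0.88 and that of *Bmal1* from 1.13 to 0.95.

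**Figure D4:**
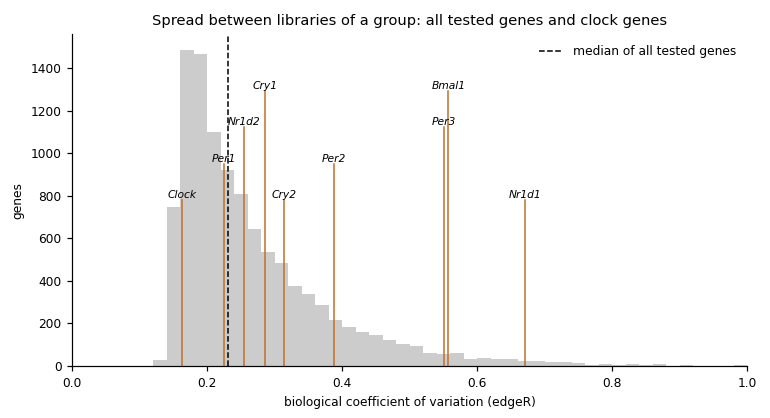
Histogram of the biological coefficient of variation between libraries of a group (x axis, up to 1) over the 10707 tested genes (y axis, number of genes), with the 9 tested clock genes as orange lines whose heights only separate the names, and the median of all tested genes as a dashed line. *Nr1d1*, *Bmal1* and *Per3* lie far to the right, and *Clock* and *Per1* lie left of the median.

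None of the 25 other genes of the clock pathway passed the threshold either. Of these, 21 were tested and 0 had an adjusted p under 0.05, with 10 higher and 11 lower and a median log2 fold change of -0.06. Without zinc replicate 3 there were 7 higher and 14 lower, with the same median of -0.06. *Bhlhe41*, a repressor, and *Rorb*, a ROR receptor, had 0 counts in all libraries, *Hlf* had 8 counts over the 8 libraries, and *Fbxl21*, a ligase subunit that acts on CRY proteins, had 48. At an unadjusted p under 0.05, 1 was higher and 1 lower, where 6.42% of all tested genes were higher and 3.78% lower. *Tef*, the D-box activator related to *Dbp*, was at 7.04, 5.54, 9.11 and 3.12 CPM with water and at 12.7, 7.60, 31.0 and 6.13 CPM with zinc, and its log2 fold change was 1.23 (SE 0.501, edgeR adjusted p = 0.485) and 0.52 without zinc replicate 3. *Nampt*, the rate-limiting enzyme of NAD salvage and a clock target, was at 22.2, 25.1, 27.4 and 23.0 CPM with water and at 23.1, 16.4, 18.6 and 14.6 CPM with zinc. Its log2 fold change was -0.43 (SE 0.162, edgeR adjusted p = 0.485) with and without zinc replicate 3, and the groups overlapped through zinc replicate 1. Next by p were *Wee1*, a kinase that restrains mitosis and a clock target, for which it was 0.79 (SE 0.436, edgeR adjusted p = 0.512) and 0.19 without zinc replicate 3, and *Fbxw11*, a ligase subunit that acts on PER proteins, with -0.28 (SE 0.204, edgeR adjusted p = 0.589) and -0.09 without it.

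Zinc replicate 3 departed from the other libraries on both arms of the clock. Relative to the mean of the other 7 libraries, *Nr1d1* was at 6.70 times, *Per3* at 3.74 times, *Per2* at 2.12 times, *Cry2* at 2.01 times and *Nr1d2* at 1.48 times, while *Cry1* was at 0.357 and *Bmal1* at 0.175 times. *Clock* at 1.12 and *Per1* at 0.849 times were close to the rest. It was the highest library for 5 of the 9 tested clock genes, against 29.8% of all tested genes, and the lowest for 2, against 30.0%. It was at least 2-fold above all others for 2, *Per3* and *Nr1d1*, against 3.55% of all tested genes, and at least 2-fold below all others for 1, *Cry1*, against 6.44%. In the wider pathway *Tef* and *Wee1* were at least 2-fold above all others, and *Npas2* and *Nfil3* at least 2-fold below. *Npas2*, a stand-in for *Clock* as partner of BMAL1, was at 3.65 CPM in zinc replicate 3 and at 9.48 to 24.2 CPM in the rest, and *Nfil3*, the D-box repressor, at 2.46 CPM against 14.9 to 54.4 CPM. These genes were named after their values had been seen, and nothing particular to the clock is read from these counts, since many genes stood out in this library.

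**Figure D5:**
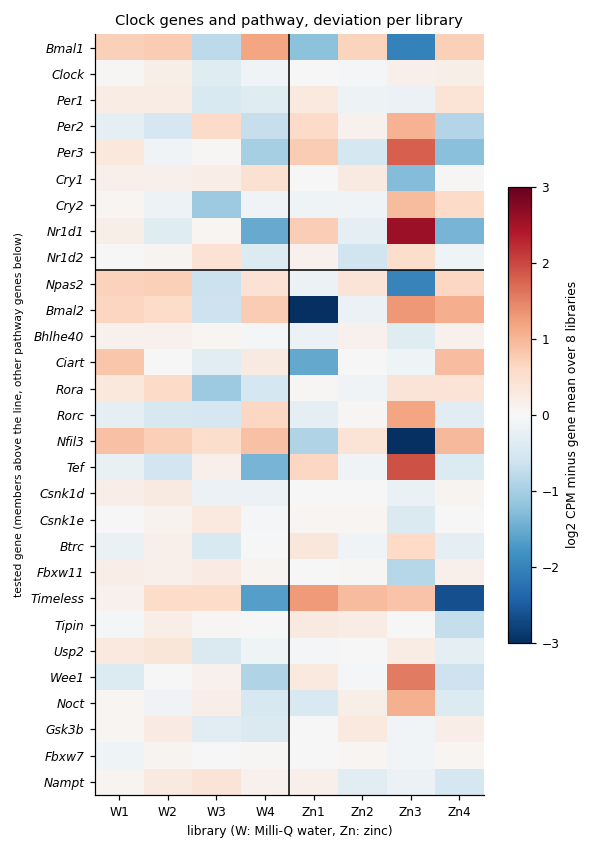
Log2 CPM of the 9 tested clock genes (above the line) and the tested genes of the wider pathway but 1 (below it) in each library (columns, W, Milli-Q water, Zn, zinc), as the deviation from the mean of the gene over 8 libraries; the colour scale ends at 3 in both directions and values under 0.05 CPM are drawn as 0.05. Zinc 3 is blue for *Bmal1*, *Npas2*, *Cry1* and *Nfil3* and red for *Nr1d1*, *Per3*, *Tef* and *Wee1*, and rows such as *Clock* and *Fbxw7* are nearly white throughout.

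Pairs with genes from outside the 10 clock genes, chosen after the values had been seen and not tested, gave a related order. *Nr1d2*, in the second pair, is itself a clock gene and part of a *Bmal1* ratio, so that pair is not independent of it. *Npas2* to *Tef* was 3.37, 4.37, 1.04 and 6.36 in Milli-Q water replicates 1 to 4 and 1.03, 2.52, 0.118 and 3.68 in zinc replicates 1 to 4. Its 3 lowest libraries were those of the *Bmal1* ratios. *Nfil3* to *Nr1d2* was 1.93, 1.62, 1.12 and 2.54 with water and 0.515, 2.09, 0.0641 and 2.26 with zinc, with the same 3 libraries at the bottom and Milli-Q water replicate 4 at the top.

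The genes whose log2 CPM was most like that of *Bmal1* over the 8 libraries were *Klhl22* (Pearson's r of 0.990), *Wdr48* (0.981), *Lrif1* (0.974) and *Nup62* (0.973), and over the 7 libraries without zinc replicate 3 *Klhl22* (0.986), *Dnajc7* (0.978), *Nup62* (0.971) and *Trappc10* (0.967). Those most like *Dbp* over the 8 libraries were *Plpp3* (0.986), *Wee1* (0.977), *Capn2* (0.977) and *Gstt3* (0.972). Over the 7 libraries, in which *Dbp* had at most 3 counts, they were *Mettl16* (0.974), *Haus6* (0.969), *Plpp3* (0.969) and *A730017L22Rik* (0.957). These are the highest of 10707 values over few libraries that share zinc replicate 3 or a split in *Bmal1*, and are given as a description. *Wee1* was the only gene of the clock pathway among them.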

How the data were processed

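The authors deposited 1 table of raw counts per Ensembl gene, with a column for each library; samples were grouped by their labels and none was left out. According to the submitters' processing notes, FastQC 0.12.0, STAR 2.7.10a, DESeq2 and the mm39 genome were used. The counting tool, its strand setting, the annotation release and the handling of reads with several matches are not given in the sources used here, and the library kit was stranded. Symbols, coordinates and transcript lengths came from GENCODE M39 (GRCm39), which matched 54749 identifiers; the other 665 held 0.00443% of counts.

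Zinc was compared with Milli-Q water in edgeR 4.0.16 (R 4.3.3; TMM, default expression filter, quasi-likelihood F-test, Benjamini-Hochberg adjustment, threshold 0.05). The filter kept 10707 genes with 99.9% of counts, and the common BCV was 0.269. For log2 ratios of counts + 0.5, all 70 assignments of the libraries were enumerated (two-sided exact permutation test). The least different of 28 pairs of libraries had a chi-square of 6.39 per degree of freedom, so each library counted as 1 replicate. On simulated data for this comparison (10560 genes tested), 34.3% of genes changed by 1 and 89.8% changed by 2 on the log2 scale were recovered, and 7 of 129 called genes were unchanged. The simulation drew each gene independently, with no library set apart like zinc replicate 3 and no trend with transcript length. These shares therefore need not hold for the real libraries. Alternatives used limma 3.58.1 (voom with sample weights), DESeq2 1.42.0, other scaling, filters and sample sets, and a correction for transcript length.

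Members and lists were chosen with earlier results of these data known. Named genes were the 10 clock genes; of the 25 other pathway genes the 4 of smallest p and those with no count; and the 4 genes most like *Bmal1* and *Dbp*. *Hlf*, *Fbxl21*, *Npas2* and *Nfil3* were added after their values were seen. Correlations between clock genes were planned but not run, because the *Bmal1* libraries fell into separate sets and *Dbp* had at most 3 counts in 7 libraries. Single values of 1 pathway gene and 1 marker are not reported here.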

Additional observations from a re-analysis of the deposited data

Results flagged for a closer look

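Of 32 groups of 4 values examined, 2 held a single library so far from the rest that its gap, divided by the range of the group, passed Dixon's 95% limit, where chance gives about 1.6. Both were for *Cry1*. In the Milli-Q water group, replicate 4 was at 5.74 on the log2 CPM scale and the other 3 between 5.43 and 5.47 (gap over range 0.852). In the zinc group, replicate 3 was at 3.98 and the other 3 between 5.29 and 5.56 (gap over range 0.831).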

How the results depend on the processing

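None of the 9 tested clock genes and none of the 21 tested pathway genes passed the threshold in any of 19 other settings. Over all genes DESeq2 called 4 where edgeR called 0, and the cause was not tested. The lowest adjusted p of a clock gene was 0.22, for *Nr1d1* without zinc replicate 4 (log2 fold change 1.77). Of 171 clock gene values under these settings 160 kept their direction. Those that turned were *Nr1d2* at 0.051 (upper-quartile factors), 0.13 (without Milli-Q water replicate 3), 0.14 (without zinc replicate 2) and 0.03 (without zinc replicate 4), *Per3* at -0.11 (limma-voom) and -0.0044 (without zinc replicate 3), *Per1* at -0.11 (without Milli-Q water replicates 3 and 4), and *Clock* at -0.00089 (limma-voom), -0.043 (without Milli-Q water replicates 3 and 4), -0.060 (length correction) and -0.059 (length correction with the replicate block). Leaving out 1 library gave -0.0044 to 1.07 for *Per3* and -0.22 to 0.14 for *Nr1d2*. None of these values passed a threshold, and apart from those that left out libraries the cause was not tested.

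Libraries of the same replicate number did not deviate together (r of -0.02, 0.01, 0.02 and 0.03, and 0 of 8 libraries correlated best with its own number), so the numbers were not taken as pairs. With the replicate number as a block, 0 genes passed and 802 had an unadjusted p under 0.05, against 1092 without it. Under the block the log2 fold change of *Nr1d1* was 0.87 and that of *Bmal1* -0.86. *Bmal1* was the 1 clock gene with an unadjusted p under 0.05 in that fit (edgeR adjusted p = 0.595).

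All 6 ratio differences stayed negative under every alternative run. None gave a p under 0.05. The replicate block (smallest exact p 0.125) and every setting that left out libraries could not give one. The two-sided exact p doubles the share of assignments at least as extreme in the direction seen. Only 35 assignments exist for 7 libraries and 15 for 6, so these settings decide nothing at that threshold. Leaving out 1 library gave -2.72 to -0.52 for *Bmal1* to *Nr1d1* and -3.38 to -0.71 for *Bmal1* to *Dbp*. Ratios to *Dbp* with no count added could not be computed because of a 0. Depth limits the ratios, with 17 to 23 counts of *Bmal1* in 3 libraries and at most 3 counts of *Dbp* in 7.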
